A study of Mus musculus with 114 samples.

Results

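The genes of the mitochondrial protein import machinery were followed in mouse adipocytes over 34 weeks of high fat feeding. They were chosen by name: all genes whose symbol starts with Tomm or Timm and a number, and 8 listed genes of the matrix side of import. This gave 32 of the 29132 genes in the table, of which 10 encode Tomm proteins, 14 encode Timm proteins and 8 act in the matrix (Pam16, Dnajc19, Grpel1, Hspa9, Hspd1, Hspe1, Pmpca and Pmpcb). Of these, 29 passed the filter on low values and were tested, namely 8 Tomm, 13 Timm and all 8 matrix genes.

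Most mitochondrial proteins are encoded in the nucleus, made in the cytosol and imported as unfolded precursors. They cross the outer membrane through the TOM complex, which consists of the Tomm40 pore, the receptors Tomm20, Tomm22 and Tomm70a and the small subunits Tomm5, Tomm6 and Tomm7. Precursors with an N-terminal presequence then pass the TIM23 complex of the inner membrane and are pulled in by an Hsp70 motor, after which the presequence is cut off and chaperonins fold the protein. Carrier proteins of the inner membrane are instead escorted through the intermembrane space by the small Tim chaperones and inserted by the TIM22 complex. In white adipocytes the mitochondria supply acetyl groups and energy for lipid synthesis and oxidize fatty acids, and nearly all of the enzymes for this enter by these routes.

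RNA was sequenced from the cells of perigonadal white adipose tissue that float after collagenase digestion, which were taken as adipocytes. The mice were male C57BL/6 animals (C57BL/6J in the study's methods) fed either chow (CD) or a diet high in fat (HFD) from 6 weeks of age, and the genotype field of the labels holds only the diet. Each diet had 6 mice after 8 weeks and 6 after 20 weeks, while after 34 weeks of feeding there were 8 on CD and 6 on HFD, so that time on the diet and age rose together in both diets. The values are reads of a gene per 1000000 reads on the listed genes (CPM) in 1 column per mouse, in which 3 technical replicates had been merged. Diet is the only labelled difference between mice of the same time, and the labels give no batch.

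Between 9275711 and 15480388 reads on genes were recovered per mouse (median 12522298.5), and 1 read was worth 0.0646 to 0.108 CPM. At 8 weeks every HFD library was deeper than every CD library. All 8 adipocyte markers (such as Adipoq, Plin1 and Fabp4) were present, with a summed level of at least 14249 CPM in every mouse. The median of this sum was 37221 CPM in CD and 31673 CPM in HFD mice at 8 weeks, 37906 and 23622 CPM at 20 weeks and 35298 and 23370 CPM at 34 weeks, and 1, 7 and 8 of the 8 were lower by the test at these times. The fraction also held RNA of other cells. The summed level of 7 macrophage markers ranged from 295 to 1484 CPM (CD) and 844 to 2536 CPM (HFD) at 8 weeks, from 867 to 2600 CPM and 3456 to 7283 CPM at 20 weeks, and from 814 to 9079 CPM and 3898 to 11014 CPM at 34 weeks. Markers of lipid-associated macrophages (Trem2, Gpnmb, Itgax, Spp1, Mmp12 and Atp6v0d2) summed to 14.9 to 121 CPM in 8 week CD mice and to 2898 to 9002 CPM in 34 week HFD mice, and among the 20 week CD mice, mouse 1 stood at 1450 CPM. Endothelial markers were higher in HFD mice for 5, 4 and 5 of 5 genes at the 3 times, progenitor markers for 2, 4 and 2 of 4 and mural markers for 3, 2 and 3 of 4. T cell markers summed to at most 3.23 CPM in any mouse, with Cd3d and Cd3g at 0 in all 8 week CD mice, while no macrophage marker was at 0 throughout a group. In such bulk samples, fewer cells of a type and less RNA per cell cannot be told apart, and the part of these other cells in the results below was not tested.

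The levels of different genes were ordered per kilobase of exon. In 8 week CD mice the matrix chaperones stood first, with Hspa9, the mitochondrial Hsp70, at 157 ± 5.32 CPM per kb (mean ± SD, n = 6) and Hspd1, the Hsp60 subunit, at 138 ± 9.30 CPM per kb. Timm8b followed at 65.0 ± 4.73, Tomm7 at 60.9 ± 5.30 and Hspe1, the Hsp10 subunit, at 42.4 ± 4.27 CPM per kb. Timm8b and Tomm7 differed by less than their spread. Timm13 (35.4 ± 1.54), Tomm22 (30.3 ± 2.27), Timm23 (29.3 ± 2.01) and Grpel1 (27.8 ± 1.72 CPM per kb) came next. Tomm22 and Timm23, and Timm23 and Grpel1, differed by less than their SD. The lowest levels per kb were those of Tomm40l (4.30 ± 0.550), Timm9 (2.81 ± 0.552) and Timm8a1 (1.89 ± 0.631 CPM per kb), so that these levels were spread over a wide range. Lengths were of all merged exons of a later annotation than the counting used, so the order depends on them too. Timm9 (4282 bases) and Timm10 (815 bases) had 12.0 and 12.6 CPM but 2.81 and 15.4 CPM per kb. No level per kb is given for Timm10b, since 86.0% of its exon bases in the annotation used here are shared with Dnhd1 on the same strand, and a count of unambiguous reads leaves out reads that fall in both genes.

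The members that were not tested were at or near 0 in all mice. Tomm20l was at 0 CPM in every mouse, Timm8a2 reached at most 0.172 CPM and Tomm6 at most 0.602 CPM. Tomm6 encodes a small TOM subunit, and 76.0% of its exon bases are shared with Gm21981 on the same strand. Reads that fall in both genes are left out of a count of unambiguous reads, and the part of this in the low values of Tomm6 was not tested.

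To ask how the machinery responded to HFD, HFD mice were compared with CD mice of the same time by limma on log2(CPM + 1), and p-values were adjusted by Benjamini-Hochberg across the 10343 genes that entered the fit. At 8 weeks 8 of the 29 genes were higher in HFD mice and 2 were lower, at 20 weeks 4 were higher and 7 lower, and at 34 weeks none was higher and 9 were lower. Among all genes tested, 29.8% were higher and 15.1% lower at 8 weeks, 38.3% and 18.7% at 20 weeks and 27.5% and 15.7% at 34 weeks. The share of import genes that were higher was thus close to the background at 8 weeks and below it later, and the share of import genes that were lower was below the background at 8 weeks and above it at 20 and 34 weeks. The median difference over the 29 genes was 0.24, -0.11 and -0.18 on the log2 scale, against 0.11, 0.14 and 0.07 over all genes tested. The 8 week count of higher genes was 5 without HFD mouse 4 or 6 of that time and that of lower genes 1 without CD mouse 2 or HFD mouse 3 or 5. The 20 week count of lower genes was 4 without CD mouse 3 of that time, and the 34 week count was 5 without HFD mouse 2 or 3 and 14 without HFD mouse 6 of that time. For the count of 0 at 34 weeks, edgeR and DESeq2 gave 0 higher genes as well, and 12 of the 29 had an unadjusted p under 0.05, with a negative difference in each. All 6 groups shared 1 estimate of the spread, also in the 5 scalings and tests below, although spreads differed. The SD of Hspa9 (log2 scale) was 0.05 in CD and 0.06 in HFD mice at 8 weeks, and 0.27 and 0.24 at 34 weeks. Fitted separately by time, 14 import genes were higher and 3 lower at 8 weeks, 5 and 10 at 20 weeks and 0 and 4 at 34 weeks. All genes tested then gave 36.3% and 19%, 42.5% and 22.5%, and 16.4% and 7.39%.

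These counts depended on how the libraries were scaled. Scaling by the trimmed mean of M values (TMM) moved the median difference of all genes by -0.10 at 8 weeks, -0.21 at 20 weeks and -0.09 at 34 weeks, and the share of higher genes among all calls from 66.3% to 51.3%, from 67.1% to 44.7% and from 63.6% to 51.9%. With TMM, 5 import genes were higher and 2 lower at 8 weeks, 0 and 16 at 20 weeks and 0 and 12 at 34 weeks. Of all genes tested with TMM, 22.6% were higher and 21.4% lower at 8 weeks, 26.2% and 32.5% at 20 weeks and 22.4% and 20.8% at 34 weeks. The genes that kept their call in all 5 scalings and tests (CPM as deposited, TMM, median of ratios, edgeR and DESeq2) were 5 higher and 2 lower at 8 weeks, 0 higher and all 7 lower at 20 weeks and all 9 lower at 34 weeks. At 20 weeks the 4 genes that were higher as CPM (Timm17a, Timm22, Tomm40l and Tomm5) kept a positive difference under each scaling but passed the test in 3 of the 5 settings (Timm22) or in 1 (the others).

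**Figure D1:**
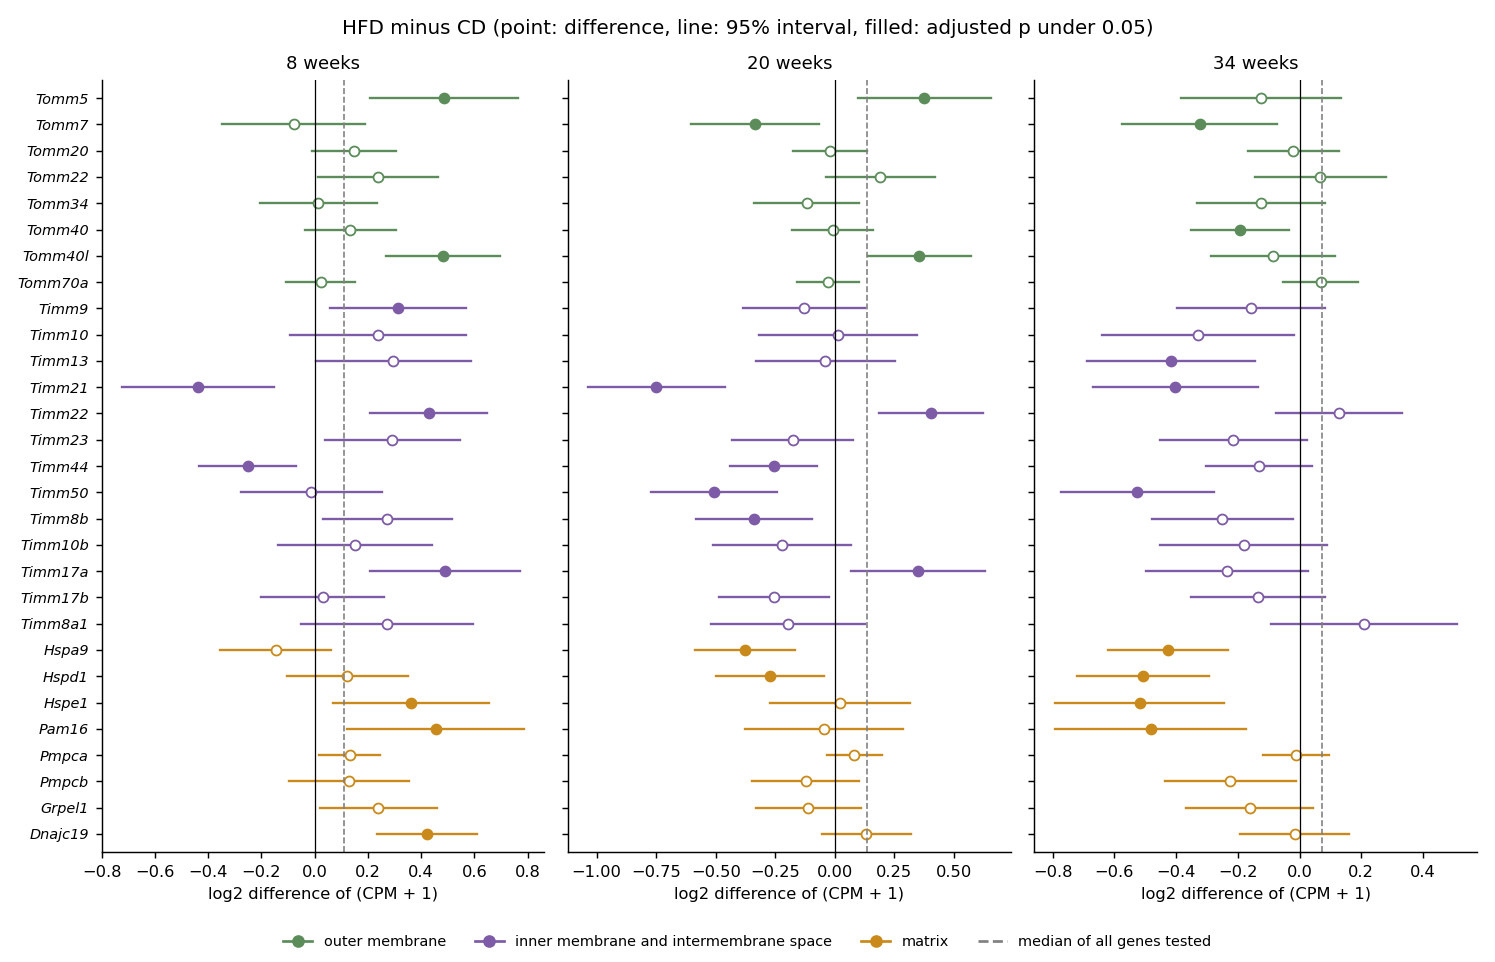
Differences between HFD and CD mice (log2 of CPM + 1) for the 29 genes tested at 8, 20 and 34 weeks. Points are differences with 95% intervals, filled where the adjusted p was under 0.05, colours mark the outer membrane, inner membrane and matrix genes, the dashed line is the median of all genes tested, and the horizontal axes differ between times. Filled points lie mostly to the right of 0 at 8 weeks (8 higher, 2 lower) and all 9 lie to the left at 34 weeks.

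Among the outer membrane genes Tomm40l and Tomm5 were higher under HFD at 8 and 20 weeks as CPM, and the 20 week calls of both were made in 1 of the 5 settings. Tomm40l encodes a paralogue of the Tomm40 pore. It ranged from 17.4 to 24.9 CPM (median 22.8) in CD and from 29.7 to 35.8 CPM (median 30.1) in HFD mice at 8 weeks, a difference of 0.48 ± 0.11 (SE, log2 scale, adjusted p = 0.00054). The groups did not overlap, nor did they at 20 weeks, when CD mice had 20.9 to 27.1 CPM (median 23.5) and HFD mice 29.1 to 32.3 CPM (median 30.8), a difference of 0.36 ± 0.11 (adjusted p = 0.0047) that was 0.15 with TMM (adjusted p = 0.291). At 34 weeks the ranges overlapped, with 27.9 to 48.8 CPM (median 42.1) in CD and 33.04 to 44.9 CPM (median 36.2) in HFD mice, and the difference of -0.09 ± 0.10 did not pass the test. Of the exon bases of Tomm40l, 64.3% lie opposite exons of Nr1i3 on the other strand, and the strand setting of the counting is not given in the sources used here.

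Tomm5, a small subunit that helps hand precursors to the pore, was called higher at the same times. At 8 weeks it had 13.2 to 15.9 CPM (median 14.8) in CD and 15.6 to 26.0 CPM (median 22.2) in HFD mice, a difference of 0.48 ± 0.14 (adjusted p = 0.00486), with a small overlap of the groups. The 20 week groups were apart, at 14.1 to 17.95 CPM (median 16.6) against 19.1 to 23.2 CPM (median 21.3), and the difference was 0.38 ± 0.14 (adjusted p = 0.0186), or 0.17 with TMM (adjusted p = 0.30). By 34 weeks both diets were near 30 CPM (medians 29.2 and 30.3 CPM), CD mouse values reached 56.2 CPM and the groups overlapped.

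Tomm7, a further small subunit of the complex, was lower in HFD mice at the later times. It ranged from 63.2 to 77.5 CPM (median 66.0) in CD and 58.3 to 68.7 CPM (median 65.4) in HFD mice at 8 weeks, with no difference passing the test. At 20 weeks the ranges were 61.3 to 90.6 CPM (median 75.2) and 52.1 to 68.0 CPM (median 58.0), a difference of -0.33 ± 0.13 (adjusted p = 0.0297). At 34 weeks they were 69.6 to 129.95 CPM (median 97.6) and 57.3 to 96.7 CPM (median 83.2), a difference of -0.32 ± 0.12 (adjusted p = 0.0329). The groups overlapped at each time. The 20 week call was lost when any 1 of CD mice 3, 4 and 5 and HFD mice 1 and 3 was left out, and the 34 week call when any 1 of CD mice 2, 3, 4 and 6 and HFD mice 2 and 3 was left out.

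Tomm40, the pore itself, was lower in HFD mice at 34 weeks, with 52.3 to 73.7 CPM (median 62.2) in CD and 44.6 to 60.4 CPM (median 58.2) in HFD mice. The difference of -0.19 ± 0.08 (adjusted p = 0.0436) lay within overlapping groups and was lost when any 1 of CD mice 2, 3, 4 and 6 and HFD mice 2 and 3 was left out. The receptors passed at no time. Tomm20 differed by 0.15, -0.02 and -0.02, Tomm22 by 0.24, 0.19 and 0.07 and Tomm70a by 0.02, -0.03 and 0.07 on the log2 scale at 8, 20 and 34 weeks, and Tomm34, a cytosolic cochaperone of import, by 0.01, -0.12 and -0.12. The 95% intervals of Tomm70a reached from -0.16 to 0.19 over the 3 times. TMM turned the sign of Tomm22 at 20 weeks (-0.02) and 34 weeks (-0.02), of Tomm34 at 8 weeks (-0.09) and of Tomm70a at 8 weeks (-0.08) and 34 weeks (-0.02), without a call. At 20 weeks it made Tomm20 -0.24, Tomm34 -0.33 and Tomm70a -0.24, all past the test.

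Among the genes of the carrier route, Timm22 was higher in HFD mice at 8 and 20 weeks, whereas of the 6 small Tims tested 1 was higher at 8 weeks, 1 lower at 20 weeks and 1 lower at 34 weeks. Timm22, the channel of the TIM22 complex, had 13.1 to 17.3 CPM (median 16.3) in CD and 17.2 to 28.2 CPM (median 21.5) in HFD mice at 8 weeks, a difference of 0.43 ± 0.11 (adjusted p = 0.00194). At 20 weeks it had 13.6 to 18.1 CPM (median 15.3) and 17.8 to 24.5 CPM (median 21.4), a difference of 0.40 ± 0.11 (adjusted p = 0.00176). The groups overlapped slightly at both times, and the 20 week call was made in 3 of the 5 settings (0.20 with TMM, adjusted p = 0.0935). At 34 weeks the values were 23.2 to 30.1 CPM (median 26.5) and 21.9 to 34.8 CPM (median 31.4), and the difference of 0.13 ± 0.10 did not pass.

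Timm9 and Timm10 form the hexamer that carries precursors across the intermembrane space. Timm9 had 8.52 to 14.2 CPM (median 12.95) in CD and 13.03 to 16.9 CPM (median 15.02) in HFD mice at 8 weeks, a difference of 0.31 ± 0.13 (adjusted p = 0.0415) within overlapping groups. This call was lost when any 1 of CD mice 3, 5 and 6 and HFD mice 3, 4 and 6 was left out, and it was not made under the other scalings (0.21 with TMM, adjusted p = 0.226). The Timm9 differences of -0.13 at 20 weeks and -0.16 at 34 weeks did not pass as CPM. At 20 weeks Timm9 was called lower in 2 of the 5 settings (-0.33 with TMM, adjusted p = 0.0469). Timm10 differed by 0.24, 0.01 (-0.19 with TMM) and -0.33 at the 3 times and passed at none as CPM, while TMM gave -0.41 at 34 weeks (adjusted p = 0.0376), Timm10b differed by 0.15, -0.22 and -0.18, with -0.41 at 20 weeks under TMM (adjusted p = 0.0202), and Timm8a1 by 0.27, -0.20 and 0.21 at levels of 1.51 to 4.76 CPM in all mice.

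Timm8b and Timm13 belong to a further pair of small Tims with a narrower set of substrates. Timm8b had 29.4 to 36.5 CPM (median 33.6) in CD and 36.1 to 45.9 CPM (median 40.3) in HFD mice at 8 weeks, where the difference of 0.27 ± 0.12 did not pass (adjusted p = 0.0606). The order was turned at 20 weeks, with 30.9 to 49.2 CPM (median 39.9) in CD and 29.1 to 31.9 CPM (median 31.2) in HFD mice, and the difference of -0.34 ± 0.12 passed (adjusted p = 0.0155). The 6 HFD mice lay in a narrow band at the lower edge of the CD mice, and the call was lost without CD mouse 3. At 34 weeks its difference was -0.25 as CPM (adjusted p = 0.0674) and -0.34 with TMM (adjusted p = 0.0428). Timm13 passed at 34 weeks, with 58.8 to 132 CPM (median 85.2) in CD and 46.7 to 79.5 CPM (median 70.0) in HFD mice, a difference of -0.42 ± 0.13 (adjusted p = 0.0125). Its groups overlapped, and the call was lost without HFD mouse 2 or 3. Its differences at 8 and 20 weeks were 0.30 and -0.04.

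In the presequence translocase, Timm21 was lower in HFD mice at each time. In the fit that shared 1 spread over all groups, it was the only 1 of the 29 genes called in the same direction at all 3 times. Which genes the fits separated by time called is not given here. It joins the TIM23 complex to TOM and to the respiratory chain. Its level ranged from 21.9 to 24.0 CPM (median 23.0) in CD and from 13.6 to 21.3 CPM (median 16.5) in HFD mice at 8 weeks, a difference of -0.44 ± 0.14 (adjusted p = 0.0117). At 20 weeks the ranges were 18.1 to 26.9 CPM (median 24.5) and 12.2 to 17.7 CPM (median 13.1), a difference of -0.75 ± 0.14 (adjusted p = 3.51e-05). These groups did not overlap at either time. At 34 weeks the ranges of 16.9 to 36.1 CPM (median 20.3) and 13.2 to 20.3 CPM (median 16.6) did overlap, and the difference was -0.40 ± 0.13 (adjusted p = 0.0137). No exon overlap with a neighbour was found for Timm21.

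Timm50, the receptor that takes presequences over from TOM, did not pass at 8 weeks and was lower in HFD mice later. At 8 weeks it had 51.0 to 71.4 CPM (median 64.1) in CD and 57.2 to 68.8 CPM (median 62.0) in HFD mice, a difference of -0.01 with a 95% interval from -0.28 to 0.25. At 20 weeks CD mice had 60.2 to 91.5 CPM (median 75.4) and HFD mice 48.4 to 55.7 CPM (median 51.9), a difference of -0.51 ± 0.13 (adjusted p = 0.00131) without overlap. At 34 weeks CD mice had 58.4 to 119 CPM (median 83.4) and HFD mice 42.7 to 66.4 CPM (median 60.6), a difference of -0.53 ± 0.12 (adjusted p = 0.00104) with some overlap. None of the calls of Timm21 and Timm50 between diets was lost when any of the 38 mice was left out. None was lost when the scaling or the test was changed with all groups still fitted together. The fits separated by time are not covered by this. They called 4 import genes lower at 34 weeks, against 9 in the shared fit. Whether Timm21 and Timm50 were among these 4 is not given here.

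Timm44, which tethers the import motor to the channel, was lower in HFD mice at 8 and 20 weeks. The 8 week values were 44.1 to 52.4 CPM (median 46.4) in CD and 35.4 to 43.4 CPM (median 38.8) in HFD mice, without overlap, a difference of -0.25 ± 0.09 (adjusted p = 0.0226) that was lost without CD mouse 2 or HFD mouse 3 or 5. The 20 week values were 48.3 to 56.4 CPM (median 51.4) and 38.6 to 48.8 CPM (median 44.3), a difference of -0.26 ± 0.09 (adjusted p = 0.0152) with a slight overlap. At 34 weeks the difference was -0.13 ± 0.08 and did not pass. The channel gene Timm23 passed at no time as CPM, with differences of 0.29, -0.18 and -0.21, and TMM gave -0.39 at 20 weeks (adjusted p = 0.0214).

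Timm17a and Timm17b are paralogues that occupy the same place beside Timm23 in alternative forms of the complex. Timm17a was called higher in HFD mice at 8 and 20 weeks as CPM and Timm17b at no time, and the difference between the paralogues was not tested. Timm17a had 43.8 to 61.6 CPM (median 52.3) in CD and 59.2 to 84.4 CPM (median 76.3) in HFD mice at 8 weeks, a difference of 0.49 ± 0.14 (adjusted p = 0.00489) with a slight overlap. At 20 weeks it had 45.4 to 54.1 CPM (median 49.4) and 58.4 to 68.3 CPM (median 63.4), without overlap, and the difference of 0.35 ± 0.14 (adjusted p = 0.0309) was lost without CD mouse 3 or 5 or HFD mouse 3 or 6 and fell to 0.13 with TMM (adjusted p = 0.46). At 34 weeks it had 55.4 to 103 CPM (median 85.0) and 48.3 to 92.8 CPM (median 73.4), and the difference of -0.24 ± 0.13 did not pass. Timm17b differed by 0.03 (-0.07 with TMM), -0.26 and -0.13 and passed at no time as CPM, while TMM gave -0.46 at 20 weeks (adjusted p = 0.00384).

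Promoter sequences are shown for the paralogues Timm17a and Timm17b, for Timm8b, whose diet difference changed between 8 and 20 weeks by the test given below, and for their channel partner Timm23. RefSeq promoters of GRCm38.p6 (250 bases before to 50 bases after the gene start) were matched by Entrez gene identifier for 28 of the 32 genes, and none was listed for Hspa9, Timm21, Tomm40l and Tomm7. The stretches below end before or just inside the first annotated exon, and capitals mark a motif match. The first 15 bases printed for Timm17b, Timm8b and Timm23 lie inside an annotated exon of the neighbour named. The stretches are, 5′ to 3′ on the strand of the gene, Timm17a at chr1:135313764-135313857 (minus strand), Timm17b at chrX:7899255-7899335 (plus strand, from inside an exon of Pqbp1), Timm8b at chr9:50603798-50603900 (plus strand, from inside an exon of Sdhd) and Timm23 at chr14:32201892-32201963 (minus strand, from inside an exon of Parg).
Timm17a: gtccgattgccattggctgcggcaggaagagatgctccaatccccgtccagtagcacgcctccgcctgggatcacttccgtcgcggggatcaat
Timm17b: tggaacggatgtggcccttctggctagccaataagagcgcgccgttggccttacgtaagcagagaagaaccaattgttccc
Timm8b: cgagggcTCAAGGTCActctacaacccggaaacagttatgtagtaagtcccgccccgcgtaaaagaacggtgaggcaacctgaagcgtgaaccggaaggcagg
Timm23: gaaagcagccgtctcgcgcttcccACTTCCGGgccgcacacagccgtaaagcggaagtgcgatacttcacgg

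In these lines the capitals of Timm8b are the motif of estrogen-related receptors (TCAAGGTCA) and those of Timm23 the motif of ETS factors such as GABPA (CCGGAAGT, here on the opposite strand). The Timm8b match lies almost wholly within the annotated exon of Sdhd. Over the 300-base windows and both strands, the ETS letters were found in 6 of the 28 import promoters (21.4%; Pmpcb, Timm10, Timm10b, Timm23, Timm8a2 and Tomm70a) and in 4.31% of the 27025 genes with a promoter. The estrogen-related receptor letters were found in Timm8b alone (3.57% against 0.466%) and the YY1 letters AAGATGGCG in Timm50 alone (3.57% against 1.64%). The NRF1 core GCGCATGC was held by Grpel1 and Timm13 (7.14% against 3.05%), and the heat shock element GAANNTTC by Hspd1, Hspe1 and Timm9 (10.7% against 9.04%), of which Hspd1 and Hspe1 lie head to head. The ATF4 letters TGATGCAA were found in 0 of 28 import promoters and in 1.03% of all genes. The promoters printed for Timm17a and Timm17b hold none of these letters. A match describes the letters only and does not show binding.

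On the matrix side, the chaperones Hspa9 and Hspd1 were lower in HFD mice at 20 and 34 weeks. Hspa9, which drives the import motor, had 657 to 722 CPM (median 671) in CD and 579 to 648 CPM (median 615) in HFD mice at 8 weeks. These groups did not overlap, but the difference of -0.15 ± 0.10 did not pass (adjusted p = 0.243). The values at 20 weeks were 636 to 747 CPM (median 703) and 481 to 624 CPM (median 534), again apart, with a difference of -0.38 ± 0.10 (adjusted p = 0.00226). At 34 weeks they were 549.6 to 921 CPM (median 684) and 402 to 620.1 CPM (median 522), with overlap, and the difference was -0.43 ± 0.10 (adjusted p = 0.000837). Both calls held in each of the 5 scalings and tests and whichever of the 38 mice was left out.

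Hspd1 and Hspe1 together form the folding chamber of the matrix. Hspd1 had 336 to 395 CPM (median 364) in CD and 361 to 436 CPM (median 403) in HFD mice at 8 weeks, without a call. At 20 weeks it had 307 to 388 CPM (median 360.2) and 282 to 313 CPM (median 291), a difference of -0.27 ± 0.11 (adjusted p = 0.0368), and the groups overlapped slightly. That call was lost when any 1 of CD mice 2 to 6 and HFD mice 1, 2, 3 and 5 was left out. At 34 weeks it had 308 to 558 CPM (median 408) and 227 to 363 CPM (median 291), a difference of -0.51 ± 0.10 (adjusted p = 0.000383).

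Hspe1 was called higher in HFD mice at 8 weeks as CPM and lower at 34 weeks, and the change of its diet difference between these times was not tested. It had 56.1 to 71.6 CPM (median 61.5) in CD and 63.7 to 96.3 CPM (median 80.8) in HFD mice at 8 weeks, a difference of 0.36 ± 0.14 (adjusted p = 0.0404) that was not called under any other scaling (0.26 with TMM) and was lost when any 1 of CD mice 1, 2, 3 and 5 and HFD mice 1, 3, 4 and 6 was left out. At 20 weeks its medians were 63.1 and 59.4 CPM, and the difference of 0.02 turned to -0.19 with TMM. At 34 weeks it had 72.6 to 145 CPM (median 97.3) and 54.0 to 90.2 CPM (median 74.2), a difference of -0.52 ± 0.13 (adjusted p = 0.00278), which held in all 5 settings.

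Of the regulators of the motor, Dnajc19 and Pam16 were called higher in HFD mice at 8 weeks as CPM, and Pam16 was called lower at 34 weeks. Dnajc19, a J protein that stimulates the Hsp70, had 21.6 to 24.7 CPM (median 23.5) in CD and 28.0 to 36.2 CPM (median 31.7) in HFD mice at 8 weeks, a difference of 0.42 ± 0.09 (adjusted p = 0.000565) with the groups apart. Its later differences were 0.13 (-0.08 with TMM) and -0.02 and did not pass. Pam16, the J-like partner of this protein, had 15.3 to 20.1 CPM (median 17.97) and 21.2 to 29.0 CPM (median 24.3) at 8 weeks, also without overlap, a difference of 0.45 ± 0.16 (adjusted p = 0.0234). TMM made this 0.35 (adjusted p = 0.113), and the call was lost without CD mouse 6 or HFD mouse 4 or 6. At 34 weeks Pam16 had 20.6 to 42.3 CPM (median 29.7) in CD and 13.1 to 32.6 CPM (median 22.6) in HFD mice, a difference of -0.48 ± 0.15 (adjusted p = 0.0111) that was lost without HFD mouse 2 or 3. Exons of Glis2 on the other strand cover 18.7% of the exon bases of Pam16.

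Grpel1, the nucleotide exchange factor of the motor, had 90.7 to 106 CPM (median 99.3) in CD and 108 to 121 CPM (median 119) in HFD mice at 8 weeks and did not overlap, yet its difference of 0.24 ± 0.11 did not pass (adjusted p = 0.0707). Its differences of -0.11 and -0.16 at 20 and 34 weeks did not pass either as CPM. At 20 weeks it was called lower in 3 of the 5 settings (-0.33 with TMM, adjusted p = 0.0317). Pmpca and Pmpcb, the subunits of the peptidase that removes presequences, passed at no time as CPM. Pmpca differed by 0.13, 0.08 (-0.13 with TMM) and -0.01 and Pmpcb by 0.13, -0.12 and -0.22, and with TMM the Pmpcb difference passed at 20 weeks (-0.34, adjusted p = 0.0321) and at 34 weeks (-0.31, adjusted p = 0.0452).

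**Figure D2:**
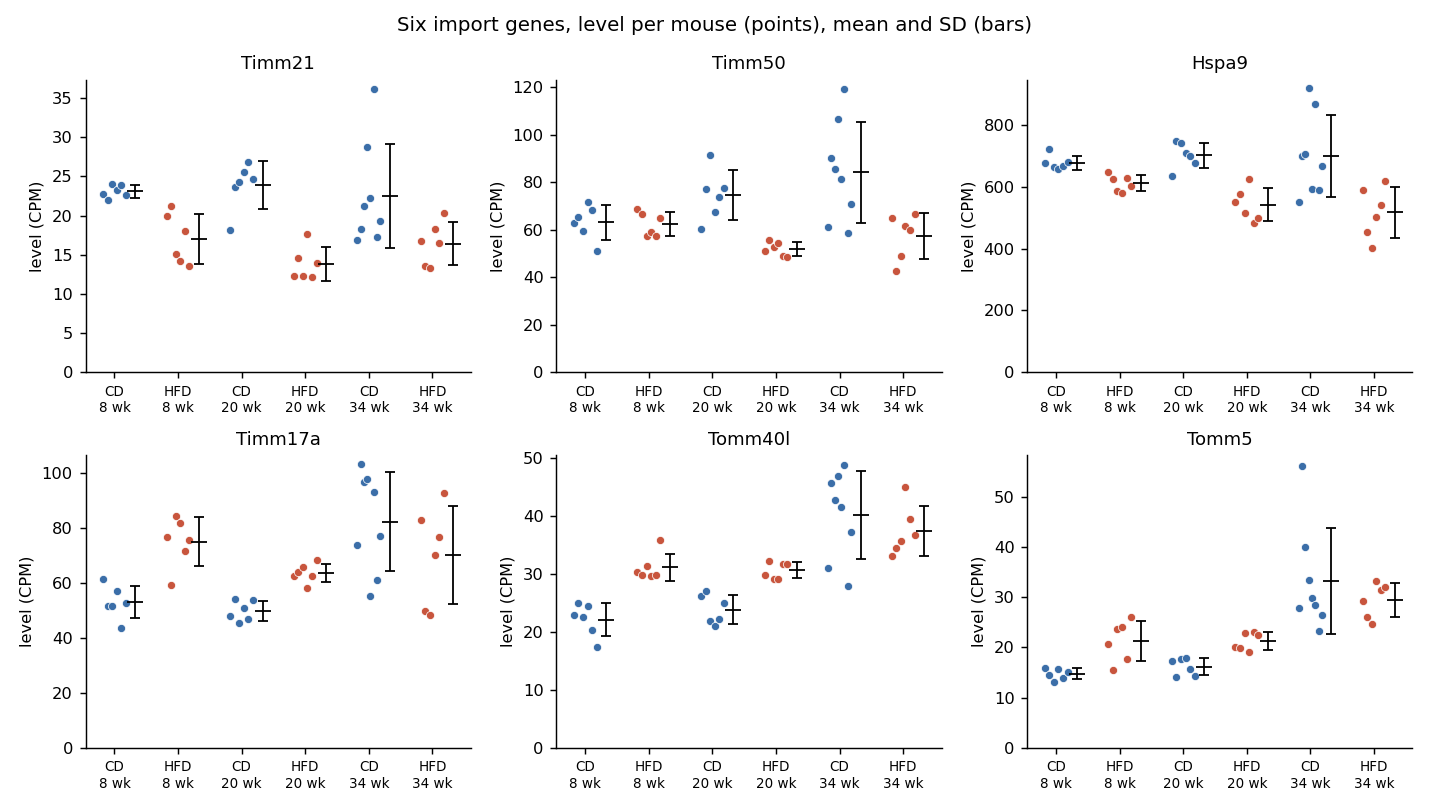
Levels (CPM, vertical axes from 0) of Timm21, Timm50, Hspa9, Timm17a, Tomm40l and Tomm5 in each of the 38 mice, by diet and weeks of feeding. Points are mice and bars the mean with SD. Timm21 is lower in HFD mice at all times, Timm50 and Hspa9 at 20 and 34 weeks, whereas Timm17a, Tomm40l and Tomm5 are higher at 8 and 20 weeks as CPM, and the 34 week CD mice are the most spread.

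The course with time was examined within each diet, using the same mice as the diet comparisons. In CD mice 20 and 8 weeks did not differ for any of the 29 genes by limma, and none had an unadjusted p under 0.05, with the lowest adjusted p at 0.352. edgeR and DESeq2 also called 0, and among all genes tested 1.7% were higher and 1.88% lower at 20 weeks. Between 34 and 8 weeks, in contrast, 20 of the 29 genes were higher in CD mice and 0 lower, where 40.1% of all genes tested were higher and 24.6% lower. The median difference of the 29 genes was 0.41, against 0.13 over all genes. TMM moved the median of all genes by -0.12 and the share of higher genes among all calls from 62.0% to 49.7%, and left 14 import genes higher and 1 lower (Tomm70a, -0.22, adjusted p = 0.015). With TMM 31.5% of all genes tested were higher and 31.9% lower.

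The largest rise in CD mice was that of Tomm5, by 1.07 ± 0.13 (adjusted p = 3.13e-08), from 13.2 to 15.9 CPM at 8 weeks to 23.2 to 56.2 CPM at 34 weeks, so that each older mouse was above each younger one. Tomm40l (0.82), Timm13 (0.80), Timm10 (0.75) and Timm22 (0.72) came next. Dnajc19, Pam16 and Hspe1 rose by 0.68 each, Tomm22 by 0.64, Timm10b by 0.62, Timm17a by 0.60, Tomm40 by 0.53, Timm9 by 0.52 and Tomm7 by 0.48. These 14 genes were called in all 5 settings. The calls of Pmpca (0.21), Timm17b (0.31), Timm23 (0.26), Timm50 (0.38) and Tomm20 (0.27) were made on CPM alone, and that of Timm8b (0.41) in 4 of the 5. The Timm23 call was lost in 27 of the 38 fits that left out 1 mouse, and none of the other 19 in any. The large chaperones did not pass, with 0.02 for Hspa9 (-0.11 with TMM) and 0.14 for Hspd1. Timm21 (-0.08), Timm44 (0.12, and -0.01 with TMM), Pmpcb (0.07, and -0.06 with TMM), Grpel1 (0.18), Timm8a1 (0.26), Tomm34 (0.20) and Tomm70a (-0.09) did not pass.

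In HFD mice 5 import genes were called at 20 against 8 weeks and 10 at 34 against 8 weeks, and the difference between the diets in the change from 8 to 34 weeks was not tested. At 20 against 8 weeks 5 of the 29 genes were lower and 0 higher (background 15.3% lower and 21.2% higher), namely Hspd1 (-0.43 ± 0.11), Pam16 (-0.41 ± 0.16), Timm8b (-0.39 ± 0.12), Timm9 (-0.35 ± 0.13) and Timm23 (-0.33 ± 0.12). No import gene was higher by edgeR or DESeq2 either, and 7 had an unadjusted p under 0.05. TMM called 8 lower, where 21.8% of all genes tested were lower, and moved the share of higher genes among all calls from 58.1% to 45.3%. The Pam16 call was lost in 20 of the 38 fits that each left out 1 mouse, and the count of lower genes was 2 without HFD mouse 3, 4 or 6 of the 8 week group and 3 without HFD mouse 1 or 4 of the 20 week group.

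At 34 against 8 weeks 7 genes were higher in HFD mice and 3 lower, where the background was 31.7% and 20.8%. Tomm22 (0.47 ± 0.11), Tomm5 (0.46 ± 0.14) and Timm22 (0.42 ± 0.11) were higher in all 5 settings, and Hspd1 (-0.48 ± 0.11), Pmpcb (-0.28 ± 0.11) and Hspa9 (-0.25 ± 0.10) were lower in all 5. The rises of Tomm40l (0.25), Dnajc19 (0.25), Timm44 (0.24) and Tomm40 (0.20) were called on CPM only. The median of the 29 genes was 0.07 as CPM and turned to -0.04 with TMM, which moved the median of all genes by -0.11 and the share of higher genes among all calls from 60.4% to 47.2%. The number of higher genes was 3 without HFD mouse 5 of the 8 week group and 4 without mouse 1 or 2 of that group or mouse 4, 5 or 6 of the 34 week group. The number of lower genes was 1 without mouse 1 or 2 of the 8 week group or mouse 2, 3 or 4 of the 34 week group, 5 without mouse 1 and 6 without mouse 6 of the 34 week group.

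**Figure D3:**
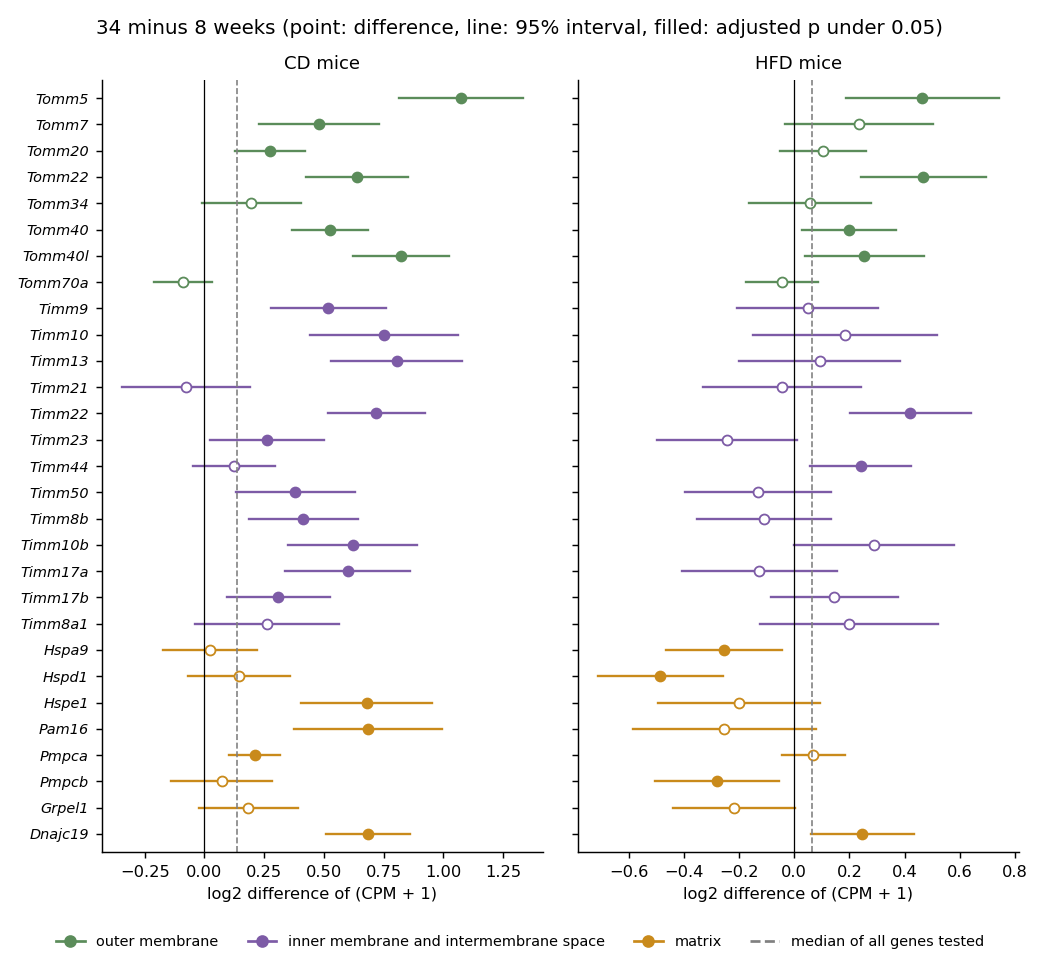
Differences between 34 and 8 weeks of feeding (log2 of CPM + 1) for the 29 genes in CD mice (left) and HFD mice (right), with 95% intervals, the fill marking an adjusted p under 0.05, the dashed line the median of all genes tested, and axes that differ between the panels. In CD mice 20 genes are filled and all lie to the right of 0, in HFD mice 7 filled points lie to the right and 3, all matrix genes (Hspa9, Hspd1 and Pmpcb), to the left.

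Whether the diet difference itself changed with time was tested by the interaction terms. Between 8 and 20 weeks 1 gene passed with a fall and 0 with a rise, where 1.67% and 2.81% of all genes did. Timm8b went from a positive to a negative diet difference, a change of -0.61 ± 0.17 (adjusted p = 0.0346). This held in all 5 settings but was lost in 12 of the 38 fits that left out 1 mouse, namely those without CD mouse 2, 3 or 6 or HFD mouse 1, 4 or 6 of the 8 week groups or without CD mouse 3, 4 or 6 or HFD mouse 1, 2 or 5 of the 20 week groups. edgeR and DESeq2 called 0 genes with a rise, and 9 of the 29 had an unadjusted p under 0.05. The median change of the import genes was -0.26, that of all genes 0.06, and TMM moved the latter by -0.10 and the share of rises among all calls from 62.7% to 47.0%.

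Between 20 and 34 weeks the diet difference of Timm17a fell by 0.58 ± 0.19 (adjusted p = 0.0415) and that of Tomm40l by 0.44 ± 0.14 (adjusted p = 0.0443), and no import gene passed with a rise, against 6.31% of all genes with a fall and 4.22% with a rise. Neither call was made under any other scaling or test, with TMM values of -0.46 and -0.32. They were lost in 13 and 16 of the 38 fits that left out 1 mouse, respectively, and 4 of the 29 genes had an unadjusted p under 0.05. TMM moved the median of all genes by 0.12 and the share of rises among all calls from 40.0% to 67.0%. Since the other import genes did not pass an interaction test, a call at 1 time and not at another is no evidence that their diet difference changed.

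The 3 compartments were then set side by side by counts and medians, which are descriptions and carry no test. At 8 weeks the diet difference had medians of 0.14 (Tomm), 0.27 (Timm) and 0.19 (matrix), with 2, 3 and 3 genes higher and 0, 2 and 0 lower. At 20 weeks the medians were -0.01, -0.20 and -0.08, with 2, 2 and 0 higher and 1, 4 and 2 lower. At 34 weeks they were -0.10, -0.21 and -0.32, and 2 Tomm, 3 Timm and 4 matrix genes were lower. The matrix genes thus had the lowest median at 34 weeks and the Timm genes at 20 weeks. In CD mice 6 of 8 Tomm, 10 of 13 Timm and 4 of 8 matrix genes were higher at 34 than at 8 weeks (medians 0.50, 0.41 and 0.20), and in HFD mice 4, 2 and 1 were higher and 0, 0 and 3 lower (medians 0.22, 0.09 and -0.24).

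Summed levels are governed by the most abundant genes, Hspa9 and Hspd1 on the matrix side. The Tomm sum ranged from 401 to 427 CPM (median 409) in CD and 422 to 472 CPM (median 448) in HFD mice at 8 weeks, 398 to 451 CPM (median 420.3) and 395 to 428 CPM (median 419) at 20 weeks, and 449 to 661 CPM (median 554) and 448 to 559 CPM (median 529) at 34 weeks. The Tomm sums overlapped between diets at each time. The Timm sum was 373 to 409 CPM (median 383) and 403 to 464 CPM (median 453) at 8 weeks, 374 to 467 CPM (median 419) and 363 to 386 CPM (median 374) at 20 weeks, and 412 to 665 CPM (median 540) and 340 to 548 CPM (median 474) at 34 weeks. The matrix sum was 1410 to 1530 CPM (median 1444) and 1432 to 1570 CPM (median 1480) at 8 weeks, 1326 to 1605 CPM (median 1495) and 1188 to 1384 CPM (median 1234) at 20 weeks, and 1309 to 2069 CPM (median 1606) and 978 to 1519 CPM (median 1258) at 34 weeks. It overlapped between diets at each time too, least at 20 weeks.

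The ratio of the matrix to the Tomm sum is free of library scaling. In CD mice it was 3.34 to 3.78 (median 3.47) at 8 weeks, 3.33 to 3.89 (median 3.53) at 20 weeks and 2.51 to 3.60 (median 2.92) at 34 weeks. In HFD mice it was 3.03 to 3.497 (median 3.39), 2.77 to 3.29 (median 3.00) and 2.14 to 2.74 (median 2.41) at these times. The diets did not overlap at 20 weeks and overlapped at the others. Among the 34 week CD mice the 3 lowest matrix sums belonged to mice 1, 5 and 7 (1309, 1372 and 1373 CPM), whose lipid-associated macrophage markers summed to 2357, 4168 and 1846 CPM, and the 2 highest to mice 4 and 6 (2069 and 1973 CPM) with 211 and 168 CPM. Mice 2, 3 and 8 had matrix sums of 1656, 1689 and 1556 CPM and marker sums of 2354, 708.5 and 982.9 CPM. The adipocyte marker sums of mice 1 and 2 were 33138 and 43416 CPM. In the 34 week HFD mice 1 to 6 the matrix sums were 1417, 1061, 978, 1200, 1316 and 1519 CPM. Their lipid-associated macrophage markers summed to 2898, 9002, 8432, 8898, 6877 and 2936 CPM. The part of such cells in the sums was not tested.

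**Figure D4:**
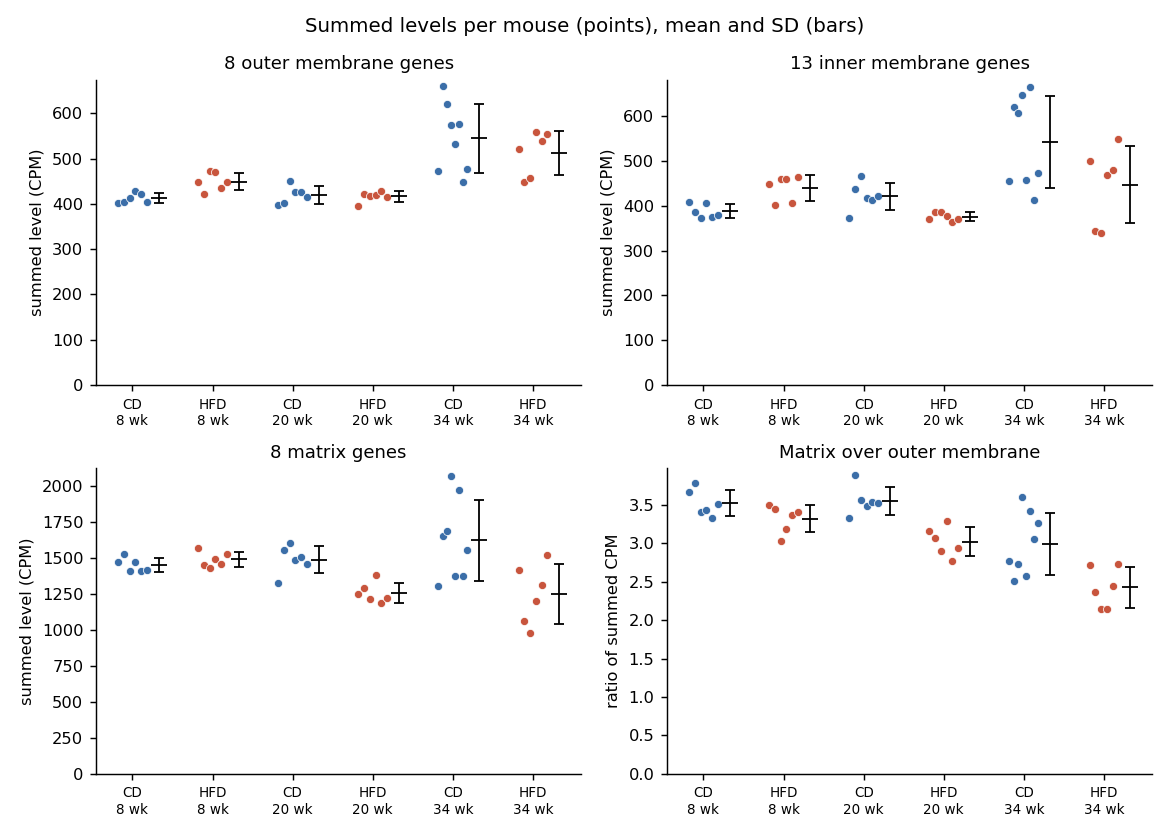
Summed levels (CPM) of the 8 outer membrane, 13 inner membrane and 8 matrix genes tested and the ratio of the matrix to the outer membrane sum, in each mouse by diet and weeks of feeding, with the mean and SD and axes from 0. The ratio falls from medians of 3.47 (CD) and 3.39 (HFD) at 8 weeks to 2.92 and 2.41 at 34 weeks, and the 34 week CD mice are the most spread in all 3 sums.

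Ratios of paralogues and partners within a mouse also leave out the scaling of the libraries. They are ratios of CPM without a correction for length, so they compare mice and do not say which of the genes had the higher level. Timm17a over Timm17b had a median of 2.83 in CD and 3.83 in HFD mice at 8 weeks (2.19 to 3.51 against 3.07 to 4.77), 2.47 and 3.80 at 20 weeks (1.73 to 3.09 against 2.93 to 4.48), and 3.63 and 3.11 at 34 weeks (2.34 to 3.83 against 2.496 to 4.06). The diets overlapped slightly at 8 and 20 weeks and wholly at 34 weeks. Tomm40l over Tomm40 had medians of 0.520 and 0.645 at 8 weeks (0.442 to 0.591 against 0.598 to 0.806) and 0.583 and 0.734 at 20 weeks (0.473 to 0.612 against 0.647 to 0.765), with no overlap at either time. At 34 weeks the medians were 0.660 and 0.704 and the diets overlapped. Hspe1 over Hspd1 had medians of 0.176 (CD) and 0.203 (HFD) at 8 weeks, 0.173 and 0.207 at 20 weeks and 0.235 and 0.243 at 34 weeks, with no overlap between 8 and 34 weeks in CD mice, and CD and HFD mice overlapped at each time.

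**Figure D5:**
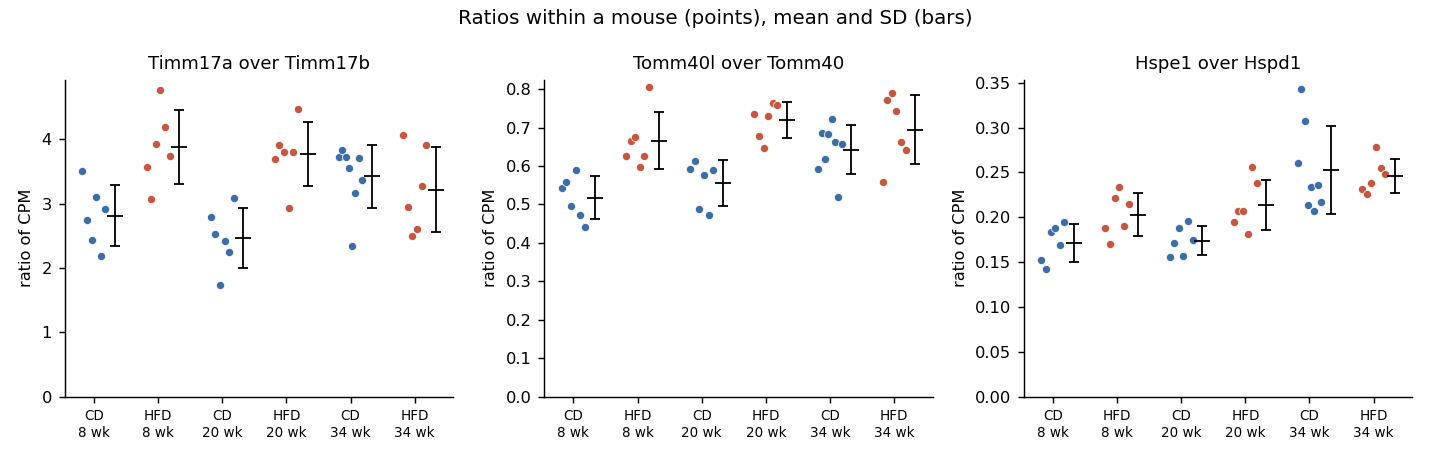
Ratios of CPM within each mouse for Timm17a over Timm17b, Tomm40l over Tomm40 and Hspe1 over Hspd1, by diet and weeks of feeding, with the mean and SD and axes from 0. Tomm40l over Tomm40 separates the diets at 8 and 20 weeks, Timm17a over Timm17b nearly does, and Hspe1 over Hspd1 does not at any time.

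Genes that work beside the import machinery were counted from lists made by role. Of 15 other import genes (sorting of outer membrane proteins, disulfide relay, insertion), 2 were higher and 2 lower in HFD mice at 8 weeks, 3 and 4 at 20 weeks and 1 and 4 at 34 weeks. Over all genes tested the shares higher and lower were 29.8% and 15.1%, 38.3% and 18.7%, and 27.5% and 15.7% at these times. Mtch1, an insertase of the outer membrane, was higher by 0.66 ± 0.11 at 8 weeks (adjusted p = 2.31e-05; medians 107 and 179.9 CPM, no overlap) and by 0.46 ± 0.11 at 20 weeks (adjusted p = 0.000593; medians 107 and 147 CPM, no overlap). The largest falls were those of Samm50 (-0.27), the core of the sorting machinery, at 8 weeks, Cox18 (-0.40), an insertase of the inner membrane, at 20 weeks and Romo1 (-0.60 ± 0.16, adjusted p = 0.00382), a TIM23 subunit, at 34 weeks. Agk, a TIM22 subunit, was called higher at 34 weeks (0.24) on CPM alone. By the interaction term, the diet difference of Mtch1 fell between 20 and 34 weeks (-0.55 ± 0.15, adjusted p = 0.0164).

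Of 16 genes for presequence processing and protein quality, 1 was higher and 4 lower at 8 weeks, 1 and 10 at 20 weeks and 1 and 6 at 34 weeks, where 15.1%, 18.7% and 15.7% of all genes tested were lower and 29.8%, 38.3% and 27.5% higher. Immp2l, a subunit of the inner membrane peptidase, had a median of 18.3 CPM in CD and 6.39 CPM in HFD mice at 20 weeks, without overlap, a difference of -1.30 ± 0.19 (adjusted p = 1.31e-06), and its difference at 34 weeks was -0.99 ± 0.18 (adjusted p = 0.000115). At 8 weeks the largest fall was that of Clpp (-0.43 ± 0.16, adjusted p = 0.028), the matrix protease, and the rise of Immp1l (0.44) was called on CPM alone. Htra2, a protease of the intermembrane space, went the other way, with medians of 25.0 and 41.5 CPM at 20 weeks (0.73 ± 0.13, adjusted p = 1.48e-05, no overlap) and a difference of 0.61 ± 0.12 at 34 weeks (adjusted p = 0.000247). By the interaction term, the diet difference of Immp2l fell between 8 and 20 weeks (-1.13 ± 0.27, adjusted p = 0.0198).

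Of 9 regulators of mitochondrial genes, 0 were higher and 3 lower at 8 weeks, 1 and 2 at 20 weeks and 2 and 1 at 34 weeks, against shares of all genes that were 15.1%, 18.7% and 15.7% for lower and 29.8%, 38.3% and 27.5% for higher genes. Ppargc1a, a coactivator of mitochondrial biogenesis, had medians of 10.2 CPM in CD and 5.10 CPM in HFD mice at 8 weeks (-0.84 ± 0.21, adjusted p = 0.00166) and was lower by 0.77 at 20 weeks as well (log2 difference -0.77 ± 0.21, adjusted p = 0.00192). At 34 weeks Nrf1 was higher (0.46 ± 0.11, adjusted p = 0.00142) and Pparg lower (-0.54 ± 0.15, adjusted p = 0.00366), and the rise of Esrra at 20 weeks (0.31) was called on CPM alone. Among 4 stress transcription factors, Atf5, which drives chaperone genes when import fails, was higher at 8 weeks (0.67 ± 0.17, adjusted p = 0.00184; medians 87.9 and 148 CPM), higher on CPM alone at 20 weeks (0.51) and lower at 34 weeks (-0.44 ± 0.16, adjusted p = 0.0224; medians 118 and 81.3 CPM). The diet difference of Atf5 fell between 20 and 34 weeks by the interaction term (-0.95 ± 0.23, adjusted p = 0.0082). Atf4 was lower at 8 weeks by 0.53 (log2 difference -0.53 ± 0.16, adjusted p = 0.00707). Unless said otherwise, these named calls held in all 5 scalings and tests.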

How the data were processed

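RNA of the adipocyte fraction of 38 mice was analysed. According to the methods and the submitters' processing notes, reads were aligned to mm10 (GRCm38) with STAR (versions 2.5 and 2.5.2b are named) and counted with featureCounts of Subread 1.5.1 over all merged exons of a gene (GENCODE vM2), and TMM normalization was applied. The strand setting is not given in the sources used here. The deposited CPM values were made by the authors from 3 merged technical replicates per mouse. Each column sums to 1000000, so no TMM factor is visible, and 100% of the values are whole multiples of 1 read (tolerance 0.1 reads), which gave the reads on genes of each mouse. Reads are not independent molecules, so the value of 1 read covers counting error only.

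Values were tested as log2(CPM + 1), pseudocount 1, over the 10343 genes with a mean above 2.0 in all mice. The 6 groups were fitted together with limma 3.58.1 in R 4.3.3 (mean-variance trend, 32 residual degrees of freedom, two-sided, Benjamini-Hochberg adjustment over these genes, threshold 0.05). Fold changes on this scale are understated for low genes. The diet comparisons share mice with the time comparisons. Alternatives were TMM and median-of-ratios scaling, edgeR 4.0.16 and DESeq2 1.42.0 on the recovered reads, a pseudocount of 0.1, no filter, separate fits, the mouse number as a block and leaving out each mouse. The limma step was tested on simulated data.

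All members that passed the filter are given with values. From the other lists, the largest called rise and fall per diet comparison are named. The members, lists and tests were chosen with earlier results of these data known. Promoters came from RefSeq (GRCm38.p6). Exon overlaps came from GENCODE gene models of the reference used here. Libraries of other cell fractions were not analysed here.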

Additional observations from a re-analysis of the deposited data

Results flagged for a closer look

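Among the 174 combinations of a tested import gene and a group, 6 (3.45%) held a mouse far from the others by Dixon's criterion, and chance flags about 1 in 20 groups. Hspa9 was 721.5 CPM in CD mouse 2 at 8 weeks and 657 to 679.6 CPM in the other mice of that group. Timm21 was 18.12 CPM in CD mouse 1 at 20 weeks, below the 23.7 to 26.9 CPM of the others, and this mouse also had the highest lipid-associated macrophage marker sum of its group (1450 CPM). Timm9 was 9.218 CPM in HFD mouse 4 at 20 weeks against 11.5 to 12.3 CPM in the others. Of the 8 week HFD mice, mouse 2 had 42.27 CPM of Tomm34 (others 28.3 to 32.4 CPM), mouse 6 had 35.78 CPM of Tomm40l (others 29.7 to 31.4 CPM) and mouse 3 had 58.33 CPM of Tomm7 (others 64.7 to 68.7 CPM).

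In 3 genes the interaction term of limma, a change of the diet difference between times, passed on CPM. Timm8b changed by -0.6114 on the log2 scale between 8 and 20 weeks, and Timm17a by -0.5843 and Tomm40l by -0.4405 between 20 and 34 weeks. The adjusted p-values were 0.0346, 0.0415 and 0.0443. Over the 38 fits that each left out 1 mouse, the adjusted p of Timm8b ranged from 0.0117 to 0.0749. The calls of Timm17a and Tomm40l were made in 1 of the 5 settings and were lost in 13 and 16 of these fits. Of all genes tested, 1.67% passed with a fall between 8 and 20 weeks and 6.31% between 20 and 34 weeks.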

How the results depend on the processing

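None of the 14018 values of single genes under an alternative reversed a call, 13505 kept their side of the threshold, 335 lost it and 178 gained it. The counts of import genes called moved more. At 8 weeks the number higher in HFD mice (8) was 5 with TMM, with median of ratios, with edgeR and with DESeq2, and 14 in separate fits. The shares of all genes that were higher were 22.6%, 21.9%, 22.2%, 22.8% and 36.3% in that order. At 20 weeks the number higher (4) was 0 with TMM and edgeR and 1 with median of ratios and DESeq2, and the number lower (7) was 16 with TMM, 11 with median of ratios, 17 with edgeR and 15 with DESeq2. Of all genes tested, 26.2% were higher and 32.5% lower with TMM and 28.4% and 29.1% with median of ratios. The shares were 25.9% and 33% with edgeR and 28.6% and 30.2% with DESeq2. At 34 weeks the number lower (9) was 4 in separate fits, where 7.39% of all genes tested were lower. In CD mice at 34 against 8 weeks 1 gene was lower (0 as CPM) with each of TMM, median of ratios, edgeR and DESeq2. The shares of all genes that were lower were 31.9%, 31.3%, 30.7% and 30.5% in that order. In HFD mice the number lower at 20 against 8 weeks (5) was 8 with TMM and edgeR and 3 without a filter, where 21.8%, 22.8% and 7.02% of all genes were lower. At 34 against 8 weeks the number higher (7) was 3 with each of TMM, median of ratios, edgeR and DESeq2, where 24.7%, 25.9%, 25.2% and 27.2% of all genes were higher. The number lower at that time (3) was 5 with TMM and median of ratios, where 27.7% and 26.7% of all genes were lower. The fall in the diet difference from 20 to 34 weeks (2 genes) was 0 with TMM, median of ratios, edgeR, DESeq2 and no filter. Of all genes, 4%, 5.2%, 4.67%, 7.38% and 2.82% passed with a fall in these settings. The cause of these moves was not tested, apart from the shift of the median of all genes given above.

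Leaving out each mouse in turn, the counts ranged as follows, in the order higher and lower. HFD against CD gave 5 to 11 and 1 to 2 at 8 weeks, 3 to 4 and 4 to 8 at 20 weeks and 0 to 0 and 5 to 14 at 34 weeks. CD mice gave 0 to 0 and 0 to 0 at 20 against 8 weeks and 19 to 21 and 0 to 0 at 34 against 8 weeks. HFD mice gave 0 to 0 and 2 to 7 at 20 against 8 weeks and 3 to 8 and 1 to 6 at 34 against 8 weeks. The diet difference gave 0 to 0 and 0 to 2 at 20 against 8 weeks and 0 to 0 and 0 to 4 at 34 against 20 weeks, where 2 became 4 without CD mouse 7 of 34 weeks, 1 without CD mouse 6 or HFD mouse 1 of 34 weeks, and 0 without CD mouse 3, 4 or 5 or HFD mouse 1, 2, 3, 5 or 6 of 20 weeks or CD mouse 2, 3 or 4 or HFD mouse 2 or 3 of 34 weeks. At 20 against 8 weeks 1 became 2 without CD mouse 1 of 20 weeks.

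CD and HFD mice of the same time and number deviated together in some pairs and apart in others (18 pairs, r from -0.509 to 0.529, 8 over 0.1). Pairs with different numbers were not compared, so these values cannot decide whether the numbers pair the mice. With the number as a replicate block, 9 genes were higher and 2 lower in HFD mice at 8 weeks, 4 and 8 at 20 weeks and 0 and 12 at 34 weeks, and 4 had a fall in the diet difference from 20 to 34 weeks. Of all genes tested, 29.2% were then higher and 15.1% lower at 8 weeks, 38.3% and 18.8% at 20 weeks and 28% and 15.7% at 34 weeks. The fall was passed by 5.71% of them. The depth of a single read (0.0646 to 0.108 CPM) limits Timm8a2 and Tomm6, which had values near 0 and were tested only in the fit without a filter.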

Other observations

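Some ratios of partners within a mouse, which are free of library scaling, were not part of a comparison above and are given as values. They are not corrected for gene length and compare mice only. Grpel1 over Hspa9, the exchange factor over its Hsp70, had medians of 0.144 in CD and 0.192 in HFD mice at 8 weeks (0.134 to 0.158 against 0.172 to 0.205) and 0.154 and 0.187 at 20 weeks (0.144 to 0.170 against 0.177 to 0.191), without overlap at either time. At 34 weeks it was 0.124 to 0.206 in CD and 0.179 to 0.224 in HFD mice. Timm22 over Timm50, a carrier route gene over a presequence route gene, was 0.149 to 0.300 in CD and 0.359 to 0.465 in HFD mice at 20 weeks and 0.225 to 0.443 against 0.451 to 0.580 at 34 weeks, again without overlap, while the diets overlapped at 8 weeks (0.201 to 0.313 against 0.259 to 0.492).

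Tomm5 over Tomm7 had medians of 0.210 and 0.333 at 8 weeks, 0.206 and 0.378 at 20 weeks and 0.333 and 0.376 at 34 weeks in CD and HFD mice, and the diets overlapped at each time. Pmpca over Pmpcb, the subunits of the processing peptidase, had medians of 0.784 and 0.783 at 8 weeks, 0.780 and 0.890 at 20 weeks and 0.890 and 1.01 at 34 weeks. The Timm sum over the Tomm sum had medians of 0.944 and 0.9753 at 8 weeks, 0.996 and 0.906 at 20 weeks and 0.972 and 0.864 at 34 weeks. These ratios were chosen after values of the members had been seen and carry no test.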
